A study of Mus musculus with 6 samples.

Results

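The Obox genes encode oocyte-specific homeobox proteins, transcription factors of mouse oocytes and early embryos. The 6 genes described here, Obox1, Obox2, Obox3, Obox5, Obox6 and Obox8, were listed by name, with earlier results of these data known, and found by Ensembl identifier in all 6 count tables. They are 6 of 55 rows with an Obox symbol and of 53700 gene rows in all. A seventh protein-coding gene, Obox7, and 48 pseudogene or other noncoding rows make up the rest of the family.

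PolyA RNA came from germinal vesicle (GV) oocytes of the C57BL/6N strain, pooled 10 to a library. Libraries were made with the QIAseq FX Single Cell RNA kit. The study has 3 wild-type libraries (Zar +/+) and 3 Zar1 knockout libraries (Zar -/-), titled as biological replicates, and no other treatment or allele is named for either group. Whether the pools stem from different mice is not stated, so the tests measure only how far these pools differ, which may be technical. Neither the age of the animals nor the deleted part of Zar1 is stated.

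Homeobox proteins bind DNA through a homeodomain. Fully grown GV oocytes are largely silent in transcription and live on stored mRNA, and maternal Obox transcripts are part of that store. OBOX proteins are known for their part in zygotic genome activation, when the embryo starts to transcribe its own genes. ZAR1 is an oocyte RNA-binding protein that keeps maternal mRNA in storage at mitochondria, and the comparison asks which mRNA levels differ in oocytes without it.

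Most of these Obox genes resemble each other closely, which bears on the counts below, though least on those of Obox6 and Obox8. In GENCODE release M21 (GRCm38, not the mm39 build of the count tables) 53 of the 55 rows lie in a cluster of 1.51 Mb, chr7:14331436-15839678, and the other 2 on chromosome 17. Obox2 spans chr7:15388721-15398545 on the plus strand and Obox1 spans chr7:15388948-15556866 on the same strand. Those gene models share an exonic stretch of 59 bases. The other members are Obox3 (chr7:15479825-15639902, minus), Obox5 (chr7:15750131-15759800, plus), Obox6 (chr7:15833241-15839678, minus) and Obox8 (chr7:14331436-14333557, minus). All 6 are annotated as protein-coding.

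The start of the coding sequence shows how little separates Obox1, Obox2, Obox3, Obox5 and Obox7. It is printed because reads from stretches identical in 2 genes, as here in Obox1 and Obox2, cannot be given to a single gene. These are coding bases 1 to 30, with bases that differ from Obox2 in capitals. They lie in GRCm38 at chr7:15396845-15396874 (plus) in Obox2, chr7:15555162-15555191 (plus) in Obox1, chr7:14664037-14664066 (plus) in Obox7, chr7:15757537-15757566 (plus) in Obox5 and chr7:15627309-15627338 (minus) in Obox3.
Obox2: atggcggaaggtccctccttgcatccaaaa
Obox1: atggcggaaggtccctccttgcatccaaaa
Obox7: atggcTgaaggtccctccttgcatccaaaa
Obox5: atggcAgaaggtccctccttgcatccaaaa
Obox3: atggcCgaaggCccctccttgcatccaaaa
Obox1 is identical to Obox2 over these bases, Obox7 and Obox5 each differ at 1 base and Obox3 at 2. Obox6 and Obox8, which are not printed, differ from Obox2 at 22 and 18 of their first 30 coding bases. Over aligned coding bases Obox1 and Obox2 were 98.5% identical, although the coding length is 615 bases in Obox1 and 456 in Obox2. Obox5 was 95.4% identical to Obox1, 96.0% to Obox7 and 93.8% to Obox3. Obox6 was 79.9% identical to Obox5, and Obox8 stood farthest away, at 55.2% to 60.3% to the others.

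A read of 75 bases would be unique to its gene, among all GENCODE M21 transcripts, for 52.8% of the stretches of Obox1 and 47.4% of those of Obox2. The partner was almost always the other of the pair, since 47.2% of the stretches of Obox1 also occurred in Obox2. The unique share was 94.0% for Obox5, 93.5% for Obox7, 87.7% for Obox3, 98.7% for Obox6 and 100% for Obox8. With 100 bases it was 57.7% for Obox1 and 52.8% for Obox2. No source used here states the read length. The summary rows list 13.88% to 14.99% of all tallied reads of a library as not uniquely aligned and 4.21% to 4.42% as ambiguous between genes. Whether reads with several alignments also entered the gene counts is not stated. Counts of Obox1 and Obox2 may therefore miss mRNA or hold reads of each other, and they are uncertain as levels.

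**Figure D1:**
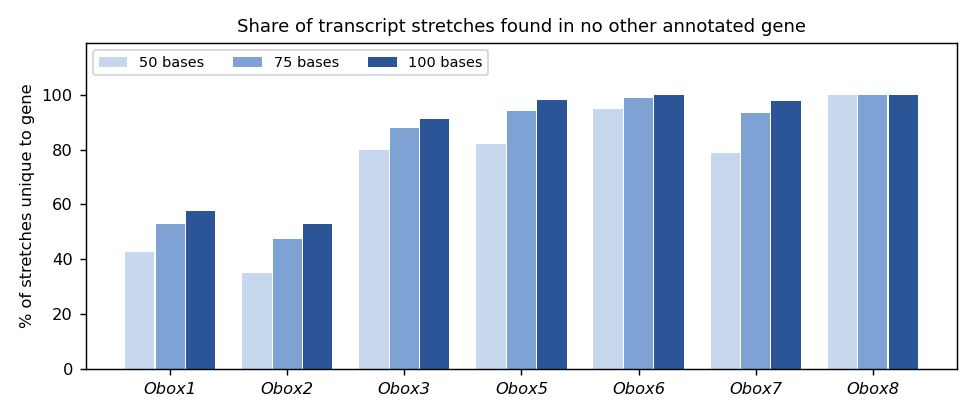
Share (in percent) of the transcript stretches of 50, 75 and 100 bases that occur in no other annotated gene, for the 7 protein-coding Obox genes (bars). Obox1 and Obox2 stay below 58% at each length, while Obox8 is at 100%.

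Sequence near the annotated starts is shared as well. RefSeq promoter windows (250 bases before to 50 after the start, GRCm38.p6) were found for Obox1, Obox2, Obox3, Obox5 and Obox7. Their longest common run is printed because it is found nowhere else in the table, with the run of 25 bases in capitals. The windows lie at chr7:15547157-15547186 (plus) for Obox1, chr7:15388848-15388877 (plus) for Obox2, chr7:15750258-15750287 (plus) for Obox5, chr7:14659622-14659651 (plus) for Obox7 and chr7:15639859-15639888 (minus) for Obox3.
Obox1: ggGTGAGAATTAAGGATTTGAATATTGcaa
Obox2: ggGTGAGAATTAAGGATTTGAATATTGcaa
Obox5: ggGTGAGAATTAAGGATTTGAATATTGcaa
Obox7: ggGTGAGAATTAAGGATTTGAATATTGcaa
Obox3: gtGTGAGAATTAAGGATTTGAATATTGtaa
On either strand, the run occurred in 5 of 32851 promoter windows (0.0152%), which are these 5. Since the run was picked as common to these 5 windows, its presence in all of them was set by that choice. It begins 98 bases before the RefSeq start in Obox1, 110 in Obox5, 109 in Obox3 and 84 in Obox7, but 1 base before it in Obox2, whose RefSeq start is placed further upstream.

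Downstream of the run, 4 of the 5 windows hold the TATA box letters TATATAA (capitals below), which occur in 3.24% of all promoter windows on either strand. They lie at chr7:15547229-15547258 (plus) for Obox1, chr7:15750330-15750359 (plus) for Obox5, chr7:14659694-14659723 (plus) for Obox7 and chr7:15639787-15639816 (minus) for Obox3.
Obox1: ttgcagagaTATATAAgggcaggtcttctg
Obox5: ttgcagagaTATATAAgggcaggtcttctg
Obox7: ttgcagagaTATATAAgggcaggtcttctg
Obox3: ttggagagaTATATAAgggcaggtcttctg
The window of Obox2 ends before the matching place. The letters TAATTG, bound by the oocyte homeobox protein NOBOX, were in 0 of the 5 windows and in 8.0% of all. The letters GGATTA, bound by homeodomains of the OTX and CRX type, were in 1 of 5 (Obox3) and in 7.06% of all. E-box letters CANNTG were in 4 of 5 and in 72.3% of all. Both strands were searched, none of these motifs lies within the shared run, and a match is a description of letters only.

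Zar1 served as the check of the labels. It had between 378.7 and 394.7 CPM (counts scaled to a common library total with TMM factors) in the wild-type libraries and 1.98, 2.58 and 6.18 CPM in knockout replicates 1, 2 and 3. The depth lay between 32126555 and 39148833 gene counts a library. Oocyte markers took between 15153 and 18051 CPM in total, and the 2 most abundant of the 12, Gdf9 and Bmp15, averaged 3087 ± 150 and 3104 ± 221 CPM (SD, n = 3) in wild type and 3274 ± 395 and 2481 ± 292 CPM in knockout. Of the 12 oocyte markers 6 rose and 1, Bmp15, fell (edgeR adjusted p = 0.0281), beside 14.9% and 18.5% of all genes tested. The 18 granulosa and cumulus cell markers summed to between 59.0 and 63.4 CPM in wild type and between 51.1 and 65.1 in knockout, led by Cyp19a1 and Has2, while Foxl2 and Amh had at most 7 and 4 counts in any library. The 15 theca, stroma, endothelium and blood markers summed to between 28.7 and 30.7 CPM in wild type and between 32.2 and 41.6 in knockout. Pecam1 and Cyp11a1 led this list and the hemoglobin genes Hba-a1 and Hbb-bs were at 0. Has2 rose from 1.74 ± 0.354 to 4.61 ± 1.47 CPM and Pecam1 from 24.2 ± 0.611 to 30.5 ± 2.15 CPM (edgeR adjusted p = 0.00712 and 0.0351). Of 11 tested granulosa and cumulus cell markers 1 rose and 1 fell, with a median log2 fold change of -0.16. Of 6 tested theca, stroma, endothelium and blood markers 1 rose and 1 fell, with a median of -0.01. The part of these markers in the results was not tested.

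Obox1 and Obox5 were lower in the knockout, Obox2 missed the threshold, and 3 members were close to undetected in GV oocytes of either genotype. Obox2, Obox5 and Obox1 held nearly all reads of the 6 members. Their sum fell from 4778 ± 290 CPM in wild type to 3595 ± 655 CPM in knockout (SD, n = 3), a ratio of 0.752, without a test because the genes were chosen with results known. Of the 6 members 4 passed the filter on low counts, and of these 2 fell, 0 rose and 2 did not pass (edgeR's quasi-likelihood test with Benjamini-Hochberg adjustment). Over all 16473 genes tested 18.5% fell and 14.9% rose. At an unadjusted p below 0.05, 3 of the 4 members were lower and 0 higher, beside 23.2% and 20.1% of all genes tested, and 0 were called higher by DESeq2 or limma-voom. Levels are relative to the other mRNAs of a library, and in such pools less RNA in every oocyte and oocytes with little of it cannot be told apart.

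Obox5, a maternal homeobox gene, was the member with the firmest difference. It had 1230, 1346 and 1290 CPM in wild-type replicates 1, 2 and 3 and 817, 910 and 1036 CPM in knockout replicates 1, 2 and 3. Every knockout library lay below every wild-type library, and the highest knockout value was that of replicate 3. The knockout level was 1.40-fold lower, a log2 fold change of -0.48 ± 0.09 (SE; edgeR adjusted p = 0.00376). This call was kept under each of the 15 other fits, GC and length offsets included, with adjusted p between 2.03e-06 and 0.0324.

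Obox1 fell less and its call is less firm. It had 989, 1121 and 1009 CPM in wild type and 707, 734 and 967 CPM in knockout replicates 1, 2 and 3. The groups did not overlap, but knockout replicate 3 lay just below the lowest wild-type library, at 93.0% of the wild-type mean. The log2 fold change was -0.37 ± 0.12 (edgeR adjusted p = 0.0382). The call was lost under RLE and upper-quartile scaling, with GC and length offsets, and when any library other than knockout replicate 3 was left out (adjusted p between 0.0516 and 0.184), and without knockout replicate 3 the log2 fold change was -0.53.

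Obox2 held the most reads of the family, and its groups overlapped. It had 2312, 2629 and 2406 CPM in wild type and 1601, 1668 and 2340 CPM in knockout replicates 1, 2 and 3. Knockout replicate 3 lay inside the wild-type range and the other knockout libraries at 65.4% and 68.1% of the wild-type mean. The log2 fold change was -0.39 ± 0.14 (edgeR adjusted p = 0.0536), close to that of Obox1. Without knockout replicate 3 it was -0.58 (adjusted p = 0.000583), and DESeq2, limma-voom, the fit with no filter on low counts, library sizes alone and the replicate block also placed it past the threshold (adjusted p between 0.000277 and 0.0378). With GC and length offsets it was -0.26 (adjusted p = 0.222).

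**Figure D2:**
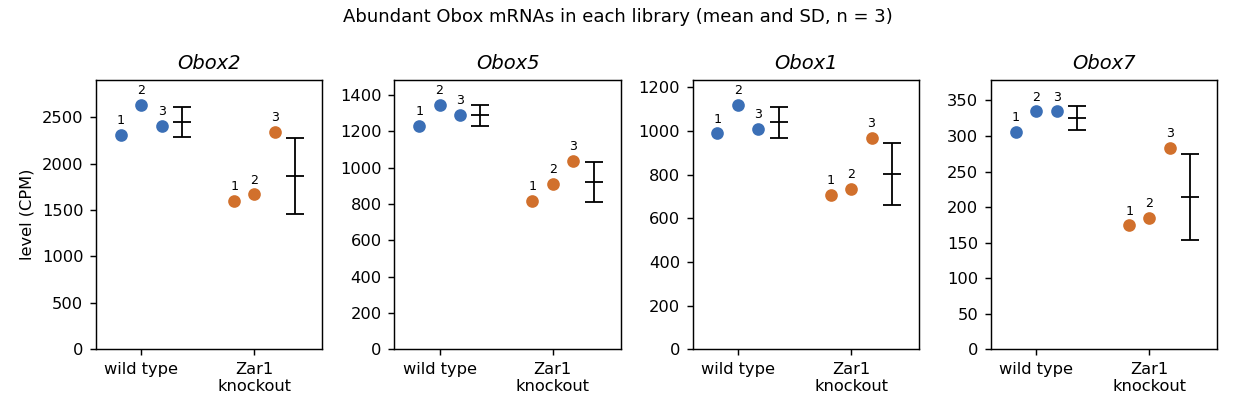
Level in CPM (y axes from 0) of Obox2, Obox5, Obox1 and Obox7 in each wild-type (blue) and Zar1 knockout (orange) library, with replicate numbers above the points and the mean and SD (n = 3) as bars at the side. In all 4 panels knockout replicate 3 is the highest knockout library, and for Obox2 it reaches the wild-type range at 2340 CPM.

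Obox7, the protein-coding paralog that is not among the 6, moved the same way. It had 306, 335 and 335 CPM in wild type and 174, 185 and 284 CPM in knockout replicates 1, 2 and 3, with no overlap between the groups. The log2 fold change was -0.60 ± 0.17 (edgeR adjusted p = 0.0222), and the call was lost with GC and length offsets or when knockout replicate 1 or 2, or wild-type replicate 2 or 3, was left out (adjusted p between 0.066 and 0.0799). Without knockout replicate 3 the log2 fold change was -0.86. The difference between the paralogs in the size of the change was not tested.

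Knockout replicate 3 was the highest knockout library for Obox1, Obox2, Obox5 and Obox7. It stood at 95.6% of the wild-type mean for Obox2, 93.0% for Obox1, 87.3% for Obox7 and 80.4% for Obox5, whereas replicates 1 and 2 lay between 53.6% and 70.7% for these genes. Among the 531 genes that fell and had at least 100 CPM in wild type, knockout replicates 1, 2 and 3 had median levels of 69.8%, 70.0% and 70.4% relative to wild type. Replicate 3 was the highest knockout library for 46.0% of these 531 genes, replicate 1 for 24.5% and replicate 2 for 29.6%. A median over many genes evens out gaps of single genes, and whether the gap is particular to Obox genes was not tested. It also held the most remaining Zar1 reads, 1.6% of the wild-type mean against 0.511% and 0.666%, and the most theca, stroma, endothelium and blood marker reads, and the part of either in the Obox levels was not tested. Without replicate 3 the knockout to wild-type ratio of the summed members was 0.674.

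**Figure D3:**
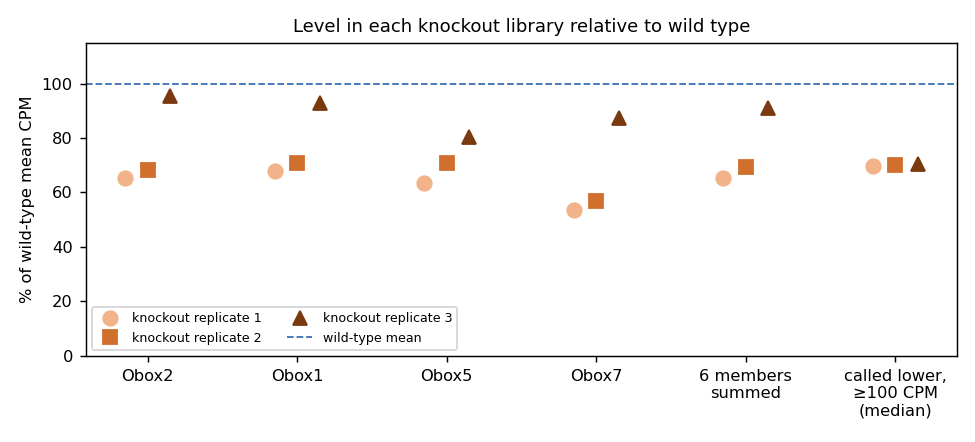
Level in each Zar1 knockout library as a percent of the wild-type mean CPM (y axis) for Obox2, Obox1, Obox5, Obox7, the 6 members summed, and, as a median, the 531 called genes with at least 100 CPM in wild type. Replicate 3 (triangles) stands above replicates 1 and 2 for the Obox genes, at 80.4% to 95.6%, and the 3 medians of the fallen genes lie between 69.8% and 70.4%.

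Proportions between the paralogs overlapped between the genotypes for some pairs and not for others. The counts of Obox2 were between 2.26 and 2.42 times those of Obox1 in all 6 libraries, on average 2.36 ± 0.0254 in wild type and 2.32 ± 0.0883 in knockout (SD, n = 3). Because of the stretches that both genes share, this ratio too is uncertain. The ratio of Obox5 to Obox2 counts lay between 0.512 and 0.536 in wild type and was 0.510, 0.546 and 0.443 in knockout replicates 1, 2 and 3, so replicate 3 held less Obox5 for its Obox2. Of all reads of the 7 protein-coding Obox genes, Obox2 took 48.0 ± 0.367% in wild type and 48.9 ± 1.49% in knockout, and Obox5 25.3 ± 0.42% and 24.4 ± 1.85%. Obox7 took 6.37 ± 0.243% and 5.57 ± 0.489%, with every knockout library below the wild-type range of 6.16% to 6.64%. The ratio of Obox2 to Obox7 counts was between 7.19 and 7.85 in wild type and between 8.25 and 9.18 in knockout, without overlap. The share of Obox1 did not overlap either, at 20.01% to 20.6% in wild type and 20.9% to 21.4% in knockout. Shares of the same total depend on each other, and neither the shares nor the ratios were tested. Across the 6 libraries Pearson's r of log2 CPM was 0.997 for Obox1 with Obox2 and between 0.932 and 0.986 for the other pairs of the 4, a description of 2 genotypes with 3 libraries each.

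Per kilobase of annotated exon, Obox2 was the most abundant in wild type at 1488 ± 98.9 CPM per kb (SD, n = 3). Obox5 followed at 603 ± 27.4 and Obox1 at 547 ± 37.4 CPM per kb. The ranges of Obox5 and Obox1 overlapped, but Obox5 was the higher within each wild-type library. It had 576, 630 and 604 CPM per kb in replicates 1, 2 and 3, against 521, 590 and 531 for Obox1. The shared stretches make the levels of Obox1 and Obox2 uncertain, and with them this order. Obox7 reached 203 ± 10.4 CPM per kb. The remaining members lay below 1 CPM per kb, Obox3 at 0.256 ± 0.0545, Obox6 at 0.0937 ± 0.0780 and Obox8 at 0. In knockout Obox2 was at 1136 ± 248 CPM per kb, and Obox5 and Obox1 were level at 431 ± 51.4 and 423 ± 75.1.

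Obox3, a member expressed mainly after fertilization, was rare in GV oocytes. It had 36, 33 and 20 counts in wild type and 17, 18 and 18 in knockout. In CPM the groups did not overlap, with 0.616 to 0.936 in wild type and 0.483 to 0.492 in knockout, but the log2 fold change of -0.74 ± 0.37 missed the threshold (edgeR adjusted p = 0.156). The count ratio was 0.591 (95% exact counting interval 0.413 to 0.840). That interval rests on pooled reads and covers counting error only, not the spread between libraries. Obox3 has several near-identical pseudogenes, and 10.52% of its stretches of 75 bases also occurred in Obox3-ps3, so these few reads are uncertain.

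Obox6 and Obox8 did not pass the filter on low counts and were not tested with the others. Obox6 had 3, 2 and 8 counts in wild type and 5, 22 and 10 in knockout replicates 1, 2 and 3, so the groups overlapped. Its knockout to wild-type ratio was 2.83 (95% exact counting interval 1.47 to 5.79), and replicate 2 gave most of the knockout reads. With no filter on low counts edgeR gave a log2 fold change of 1.40 (adjusted p = 0.265). Intervals here cover counting error only, since no source used here names molecular identifiers.

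Obox8, the most divergent of the 6, was listed at 0 counts in all wild-type libraries and had 4, 10 and 3 counts in knockout replicates 1, 2 and 3. All 3 knockout libraries were above all 3 wild-type libraries, and the pooled knockout level was 0.156 CPM (95% exact counting interval 0.0911 to 0.250). Against an assigned floor of 3 counts over the wild-type group (0.0278 CPM) the pooled knockout level was 5.63-fold higher. That ratio leaves out the counting error of the knockout reads, so it is not a lower bound. With no filter on low counts edgeR called it (adjusted p = 0.0111), the only member called higher in any fit. Obox8 entered that fit only through its knockout reads, so this p is no separate support for a rise. The annotated Obox8 transcript has no stretch of 50 bases or more in common with another annotated gene.

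**Figure D4:**
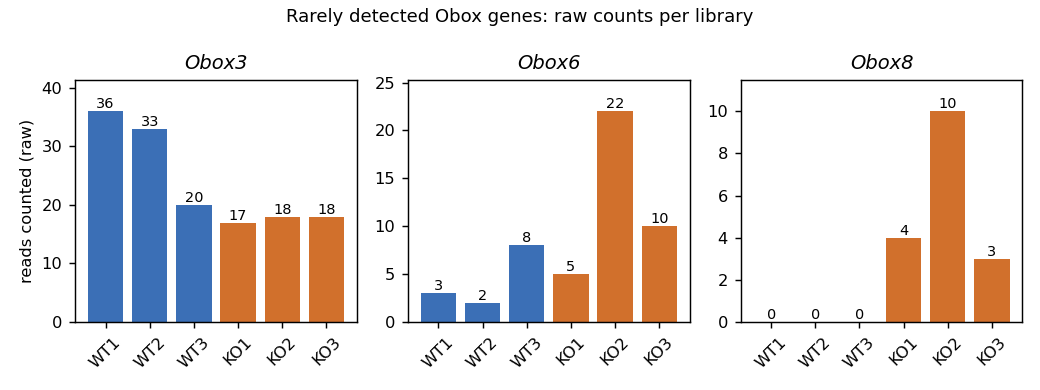
Raw read counts (y axes from 0) of Obox3, Obox6 and Obox8 in the 3 wild-type (WT, blue) and 3 Zar1 knockout (KO, orange) libraries. Obox3 has 17 to 36 counts throughout, Obox6 peaks at 22 in knockout replicate 2, and Obox8 is at 0 in all wild-type libraries.

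Every knockout library was below every wild-type library for Obox1, Obox3 and Obox5, and above for Obox8. Over all genes tested, every knockout library was lower for 25.5% and higher for 22.2%. Obox8 was not tested and is not part of these shares. With 0 counts in wild type, any read in each knockout library places it above. Obox2 and Obox6 overlapped between the groups.

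Other Obox rows were sparse apart from Obox7. No read was counted for 26 of the 55 rows, and 15 rows that are not members peaked at 1 to 9 counts. The 7 noncoding rows with at least 10 counts in some library were Obox3-ps8, Obox3-ps1, Obox3-ps6, Obox3-ps2, Obox3-ps4, Obox3-ps5 and Obox4-ps3. The processed pseudogene Obox3-ps8 on chromosome 17 had the most, with 88, 90 and 63 counts in wild type and 38, 58 and 67 in knockout (log2 fold change -0.58 ± 0.30, edgeR adjusted p = 0.174). Obox3-ps1 had a log2 fold change of -0.82 ± 0.39 (adjusted p = 0.141), Obox3-ps6 of -1.18 ± 0.67 (adjusted p = 0.211) and Obox3-ps4 of -0.54 ± 0.53 (adjusted p = 0.473), so none of the 4 tested passed. The untested Obox3-ps2 had 35 counts over wild type and 20 over knockout, and Obox3-ps5 had 28 and 5. Obox4-ps3 ran the other way, with 5, 3 and 3 counts in wild type and 14, 5 and 6 in knockout, 11 against 25 in all. Adding all 55 rows to the sum left its knockout to wild-type ratio at 0.746.

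**Figure D5:**
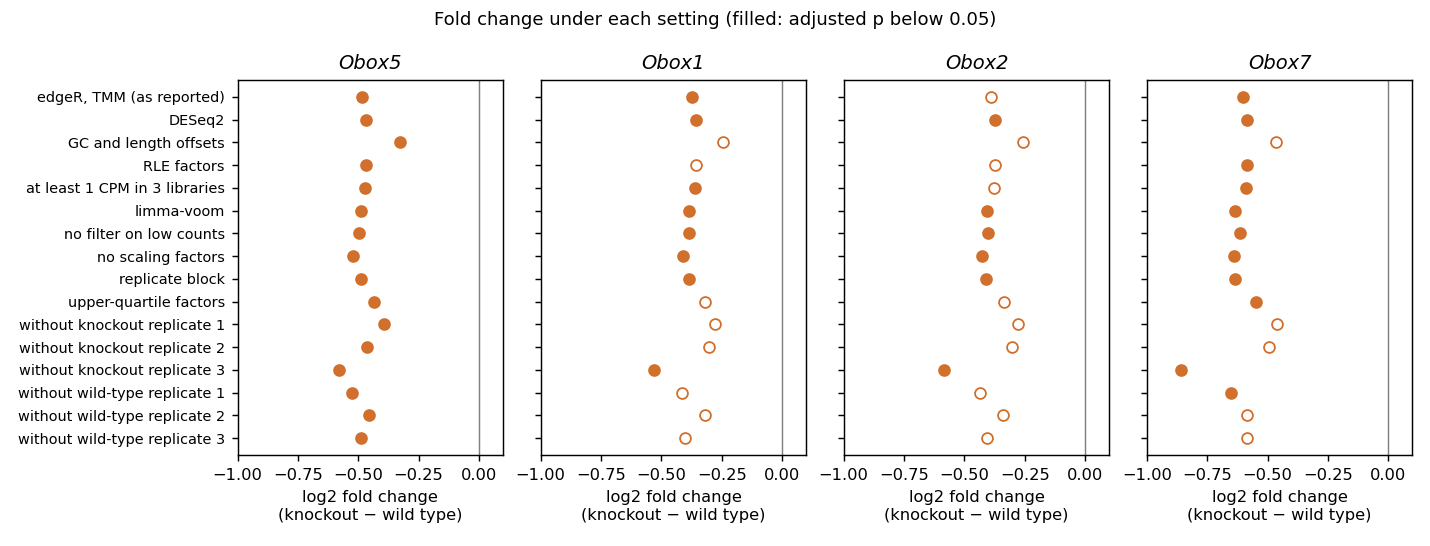
Log2 fold change (x axis, knockout minus wild type) of Obox5, Obox1, Obox2 and Obox7 under the reported fit and 15 others (rows), filled where the adjusted p was below 0.05. All values are negative, the points of Obox5 are all filled, and those of Obox1, Obox2 and Obox7 are filled in part.

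Other homeobox genes included some that rose and some that fell, as did all genes tested (14.9% rose and 18.5% fell). Of 35 tested genes of the PRD, POU, LIM, NK and related classes (86 found) 8 rose, 6 fell and 21 did not pass, with a median log2 fold change of 0.20 against 0.01 over all genes tested. Nobox, which encodes a homeobox factor needed for oocyte growth, had 155 ± 8.16 CPM in wild type and rose to 414 ± 18.5 CPM. Hhex, a homeobox repressor, rose from 112 ± 4.15 to 187 ± 7.08 CPM, and Pou2f1, the broadly expressed octamer-binding factor OCT1, fell from 63.4 ± 2.57 to 28.0 ± 2.91 CPM. Adjusted p was 1.15e-05 for Nobox, 0.000132 for Hhex and 7.47e-05 for Pou2f1 (edgeR). With GC and length offsets 5 genes of this list rose. The summed level of the list lay between 1970 and 2531 CPM in wild type and between 2637 and 3039 CPM in knockout.

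Of 31 tested genes of the TALE, SINE, CUT, zinc finger, HNF and CERS homeobox classes 5 rose, 5 fell and 21 did not pass, with a median of 0.09, beside the same 14.9% and 18.5% of all genes. The summed level was between 1608 and 1762 CPM in wild type and between 1964 and 2083 CPM in knockout. Cux1, a CUT-class repressor, fell from 31.1 ± 3.02 to 8.93 ± 0.720 CPM and Zhx1, a zinc finger homeobox gene, from 21.8 ± 1.56 to 9.08 ± 2.43 CPM. Meis2, a TALE cofactor of homeobox proteins, rose from 592 ± 17.98 to 890.5 ± 76.1 CPM. Without wild-type replicate 1, 2 or 3 the list had 3, 3 and 2 rises, and with GC and length offsets 9. It had 3 rises with the replicate block, and 3 falls where at least 1 CPM in 3 libraries was required.

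For genes that act in the same passage from egg to embryo the counts again stand beside 14.9% of all genes that rose and 18.5% that fell. Of 26 genes active at the 2-cell stage 10 were tested, and 3 rose, 2 fell and 5 did not pass (median 0.30). Tcstv1 had 12.1% to 15.2% of its wild-type mean in the knockout libraries and Tcstv3 16.5% to 24.1%, both with near-identical copies and therefore uncertain counts, and Zfp750 rose by a log2 fold change of 0.57 ± 0.09. Of 27 tested maternal regulators of zygotic genome activation 5 rose, 6 fell and 16 did not pass (median 0.10), and 3 rose without wild-type replicate 3. Nfya, a subunit of the CCAAT-binding factor NF-Y, fell from 557 ± 33.0 to 384 ± 14.3 CPM. Dppa2, a DNA-binding activator of 2-cell genes, rose from 49.7 ± 1.14 to 78.2 ± 3.93 CPM and Nr5a2, an orphan nuclear receptor, from 51.8 ± 3.17 to 77.9 ± 5.50 CPM. Adjusted p was 0.000619, 0.000458 and 0.00144 for these 3 (edgeR).

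The genes whose profile over the 6 libraries was most like that of the summed members were Lmo7, Tmem171, Myt1, Zfp626 and Prmt3, ranked by Pearson's r of log2 CPM among 10639 genes. Values of r ran from 0.992 to 0.998, as the top of a large ranking. Lmo7, which encodes a LIM and PDZ domain protein, had 307, 340 and 320 CPM in wild type and 224, 230 and 291 CPM in knockout replicates 1, 2 and 3. Knockout replicate 3 stood at 90.4% of the wild-type mean, a likeness that the ranking itself selects for. Prmt3, an arginine methyltransferase gene, had a log2 fold change of -0.73 ± 0.20 (edgeR adjusted p = 0.0231) and the zinc finger gene Zfp626 one of -1.19 ± 0.33 (adjusted p = 0.0219). Lmo7 had one of -0.38 ± 0.11 (adjusted p = 0.0244), whereas Tmem171 (-0.45, adjusted p = 0.0642) and Myt1 (-0.22, adjusted p = 0.2004) did not pass. The calls of Lmo7, Zfp626 and Prmt3 were lost with GC and length offsets and without knockout replicate 1 or 2 or wild-type replicate 2, and those of Lmo7 and Prmt3 also without wild-type replicate 3 (adjusted p between 0.0564 and 0.105 in these fits).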

How the data were processed

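PolyA RNA was sequenced from 6 pools of 10 oocytes, 3 of each genotype. For every library the authors deposited a table of raw gene counts. Per the submitters' processing notes they used bcl2fastq 2.20.0.422, cutadapt 2.8, STAR 2.7.8a, HTSeq 0.13.5 and build mm39. The annotation release, the strand setting and the read length are not stated there or in the labels. Symbols were matched by Ensembl identifier without version for 52093 of 53700 gene rows. HTSeq's summary rows were left out of library sizes and tests.

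The genotypes were compared with the quasi-likelihood test of edgeR 4.0.16 (R 4.3.3), with TMM factors and filterByExpr. Tests are two-sided, and a gene was called at a p of 0.05 after Benjamini-Hochberg adjustment over 16473 tested genes. Standard errors are the absolute log2 fold change over the square root of F. Levels are CPM with TMM factors. The steps were tested on simulated data. Pairs of libraries of a genotype differed by more than sampling noise (chi-square per degree of freedom of 12.8 or more), so none is a copy of another. Each was treated as 1 replicate, as titled, although such differences may be technical. Alternatives were other scaling factors and filters, DESeq2 1.42.0, limma-voom (limma 3.58.1), the replicate number as a block, each library left out, and a stricter threshold of 0.01. GC and length offsets were added after the data were seen.

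Exon lengths, coding sequences and shared stretches came from GENCODE release M21 and promoters from RefSeq, both on GRCm38. The members and lists were chosen with earlier results of these data known. Genes named are Zar1, the members, other Obox rows with at least 10 counts in a library, up to 3 called genes with the smallest adjusted p per list, the 2 most abundant genes per marker list, and the 5 genes most like the summed members.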

Additional observations from a re-analysis of the deposited data

How the results depend on the processing

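The number of members that fell dropped from 2 to 1 under RLE factors, upper-quartile factors, GC and length offsets, or a threshold of 0.01, and lay between 1 and 3 with each library left out in turn. With no filter on low counts 1 member was called higher (Obox8, which entered that fit only through its knockout reads). The log2 fold change of Obox1 was -0.36 under RLE factors (edgeR adjusted p = 0.0516), -0.32 under upper-quartile factors (0.0688) and -0.24 with GC and length offsets (0.184), and between -0.53 and -0.28 with a library left out. That of Obox2 passed at -0.37 in DESeq2, -0.41 in limma-voom, -0.40 with no filter, -0.43 with library sizes alone and -0.41 with the replicate block, was -0.26 with GC and length offsets (adjusted p = 0.222), and lay between -0.58 and -0.28 with a library left out. Over all genes 1171 rose and 1861 fell at a threshold of 0.01, and between 1541 and 2509 rose and between 2285 and 3125 fell with a library left out. The ratio of the summed members lay between 0.674 and 0.801 with a library left out. Where a call changed, the cause was not tested.

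The labels do not say that a replicate number is shared between the genotypes. Deviations of same-numbered libraries from their group means correlated at -0.00408, -0.0491 and -0.0397 across genes, and no library correlated best with its own number. Such weak correlations cannot exclude a shared preparation. With the replicate block 2078 genes rose and 2760 fell, and 3 members fell.

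Depth limits Obox3, Obox6 and Obox8, which had at most 36 counts in a library.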
